A study of Mus musculus with 6 samples.

Results

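Immediate early genes are the genes a cell transcribes first after a hormone, growth factor or stress, before any new protein is made. The 35 genes described here were listed by name for that role or for the feedback that ends such a response, and 31 of them were measured among the 16454 genes of the table. Fosl1, Jund, Egr2 and Egr4 were not measured. Gene expression was profiled by mRNA sequencing in 6 whole ovaries of CD1 mice, an outbred stock, at postnatal day 21. The control lineage (3 ovaries) descended from F0 dams given the vehicle, corn oil stripped of tocopherol, and the DEHP lineage (3 ovaries) from F0 dams that received DEHP, the plasticizer di(2-ethylhexyl) phthalate, at 20 µg/kg/day. All 6 ovaries were from the F3 generation, so that in both lineages only the founding dams were dosed. The comparison asks how the ovaries of the 2 lineages differ in expression. Granulosa cell markers, 6 of 6 measured, summed to at least 4888 CPM (a read count scaled to its library's total) in each ovary and oocyte markers, 8 of 8, to at least 816 CPM, so the defining markers of the labelled tissue were present.

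In a resting cell the serum response factor with its ETS partners, and CREB, sit ready on the promoters of these genes, and kinases of the ERK, p38 and cAMP pathways switch them on within minutes. The products are transcription factors of the AP-1 (FOS and JUN), EGR, NR4A and KLF families, followed by inhibitors that shut the signal off: DUSP phosphatases remove phosphate from MAP kinases, ZFP36 proteins speed the decay of short-lived mRNAs, and SOCS3 blocks cytokine receptors. In the ovary, gonadotropins acting through cAMP induce several of them in granulosa and theca cells, among them Egr1, Fos, Junb and the Nr4a genes, and NR4A1 is known as an activator of steroid synthesis genes. They also respond to cutting and handling of tissue.

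The promoters of the 3 Nr4a genes are shown with those of Junb and of Btg2, which holds a full cAMP response element. In the Nr4a genes and Junb every DEHP-lineage ovary lay above every control ovary, narrowly so for Nr4a2. The lineages overlapped in Btg2, and also in Dusp1, the other member found with the full element, which is not shown. Whether these sites bear on the levels was not tested. Lineages without overlap were about as common among members (22.6%) as among all genes (22.9%). The sequences are RefSeq's for GRCm38.p6, the build of the submitters' processing notes, from 250 bases before to 50 after an annotated start. They lie at chr15:101266596-101266895 (plus strand) for Nr4a1, chr2:57123954-57124253 (minus strand) for Nr4a2, chr4:48045055-48045354 (plus strand) for Nr4a3, chr8:84978699-84978998 (minus strand) for Junb and chr1:134079106-134079405 (minus strand) for Btg2. Capitals mark TGACG, the core of the CREB site, or its complement CGTCA.
Nr4a1: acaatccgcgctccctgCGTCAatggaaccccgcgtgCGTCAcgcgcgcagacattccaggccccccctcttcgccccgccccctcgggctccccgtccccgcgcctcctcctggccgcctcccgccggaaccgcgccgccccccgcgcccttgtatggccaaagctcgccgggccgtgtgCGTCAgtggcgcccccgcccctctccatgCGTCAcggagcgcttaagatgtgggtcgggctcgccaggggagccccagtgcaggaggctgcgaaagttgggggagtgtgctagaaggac
Nr4a2: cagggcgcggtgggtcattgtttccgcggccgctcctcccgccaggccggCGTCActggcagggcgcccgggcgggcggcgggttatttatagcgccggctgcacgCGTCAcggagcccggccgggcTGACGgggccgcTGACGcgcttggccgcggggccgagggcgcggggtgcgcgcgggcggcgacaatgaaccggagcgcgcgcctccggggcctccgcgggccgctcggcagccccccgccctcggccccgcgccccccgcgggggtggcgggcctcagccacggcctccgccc
Nr4a3: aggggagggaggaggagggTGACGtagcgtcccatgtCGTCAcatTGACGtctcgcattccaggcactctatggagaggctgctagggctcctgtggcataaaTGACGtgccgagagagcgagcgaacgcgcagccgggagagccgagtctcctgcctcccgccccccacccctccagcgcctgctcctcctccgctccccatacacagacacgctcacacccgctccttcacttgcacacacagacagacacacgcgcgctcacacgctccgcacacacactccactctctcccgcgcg
Junb: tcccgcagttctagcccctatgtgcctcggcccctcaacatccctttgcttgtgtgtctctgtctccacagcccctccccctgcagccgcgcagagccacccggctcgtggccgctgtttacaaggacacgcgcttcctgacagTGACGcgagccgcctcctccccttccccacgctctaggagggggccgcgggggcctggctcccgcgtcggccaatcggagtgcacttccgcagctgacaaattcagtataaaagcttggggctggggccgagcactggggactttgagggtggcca
Btg2: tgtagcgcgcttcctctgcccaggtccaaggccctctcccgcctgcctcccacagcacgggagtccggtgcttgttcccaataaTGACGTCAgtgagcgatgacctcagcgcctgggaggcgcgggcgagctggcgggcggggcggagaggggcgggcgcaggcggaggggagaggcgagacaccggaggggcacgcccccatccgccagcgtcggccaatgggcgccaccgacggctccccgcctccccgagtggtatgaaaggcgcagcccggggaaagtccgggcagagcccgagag
Each of the 3 Nr4a promoters held 4 such cores, Junb held 1, and Btg2 held the palindrome TGACGTCA, which is counted on both strands.

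Promoter sequences were matched for 26 of the 31 measured members, all except Dusp4, Egr1, Egr3, Ier2 and Myc. The core TGACG stood on either strand in 14 of the 26 (53.8%), against 32.0% of the 12482 measured genes with a promoter sequence. At least 4 copies were found in the promoter listed first in 3 members, the Nr4a genes, which is 11.5% of the members against 0.497% of measured genes. This core and this count were chosen after the sequences were seen, and the core holds a CG pair, which member promoters had more of (median 24.5 per 300 bases against 19.0, at 64.7% and 60.0% G plus C). The full element TGACGTCA was found in Btg2 and Dusp1 (7.69% against 3.16%), and the CArG box, the site of the serum response factor, in Dusp5 and Zfp36 (7.69% against 1.47%). None of the 26 windows held the AP-1 site TGACTCA (0 against 4.73%), the EGR site GCGTGGGCG (0 against 1.29%) or the NR4A site AAAGGTCA (0 against 1.28%), each searched on both strands. These matches describe letters in a short window and show no binding.

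The median member was a more compact gene than the median measured gene. The members' median span on the genome was 4984 bases, against 25319 for the 14447 measured genes matched to GENCODE's annotation of GRCm38, and the median number of exons, in the transcript of each gene with the most, was 4 against 9. Not every member was compact: Nr4a3 spanned 41295 bases, and Per1 had 23 exons. Annotations differed for Dusp1 and Atf3, which spanned 56539 and 47744 bases in GENCODE but 2882 and 13038 in RefSeq. The word TATTTAT, part of the AU-rich element that ZFP36 proteins bind, occurred in the annotated 3' UTR of 17 of 31 members (54.8%), against 30.0% of 14191 measured genes. It occurred at least 2 times in 9 members (29.0% against 10.6%), although member UTRs were not longer, with a median of 1109 bases against 1171. Ier3 had 4 copies, Dusp1, Zfp36, Zfp36l1 and Fosl2 had 3 each, and Egr1, Junb, Myc and Nr4a1 had 0. Of all 31-base words of a member's transcripts, at most 6.79% (Zfp36l1) occurred in another gene, and most members shared none. Exons of Gadd45a, Zfp36, Zfp36l1 and Dusp5 overlap a gene on the opposite strand, and while the library kit marks strand, the setting used in counting was not stated.

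Levels per length of exon spanned a wide range. A level is given here as CPM per kb of exonic length, as the mean of the 3 control ovaries. Zfp36l1, which encodes an mRNA decay factor, was highest at 66.3 ± 4.01 (SD, n = 3), followed by the growth regulator gene Myc at 48.3 ± 8.4, Fosl2 at 34.6 ± 2.54 and Klf6 at 28.5 ± 4.49. The classical first responders Egr1 (19.0 ± 2.69) and Fos (11.0 ± 2.81) lay in the upper and middle part of the list. Nr4a3 (0.135 ± 0.0116), Fosb (0.41 ± 0.118) and Egr3 (0.421 ± 0.12) were the lowest of the 31. The median member was at 7.29 and the median measured gene at 8.97.

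**Figure D1:**
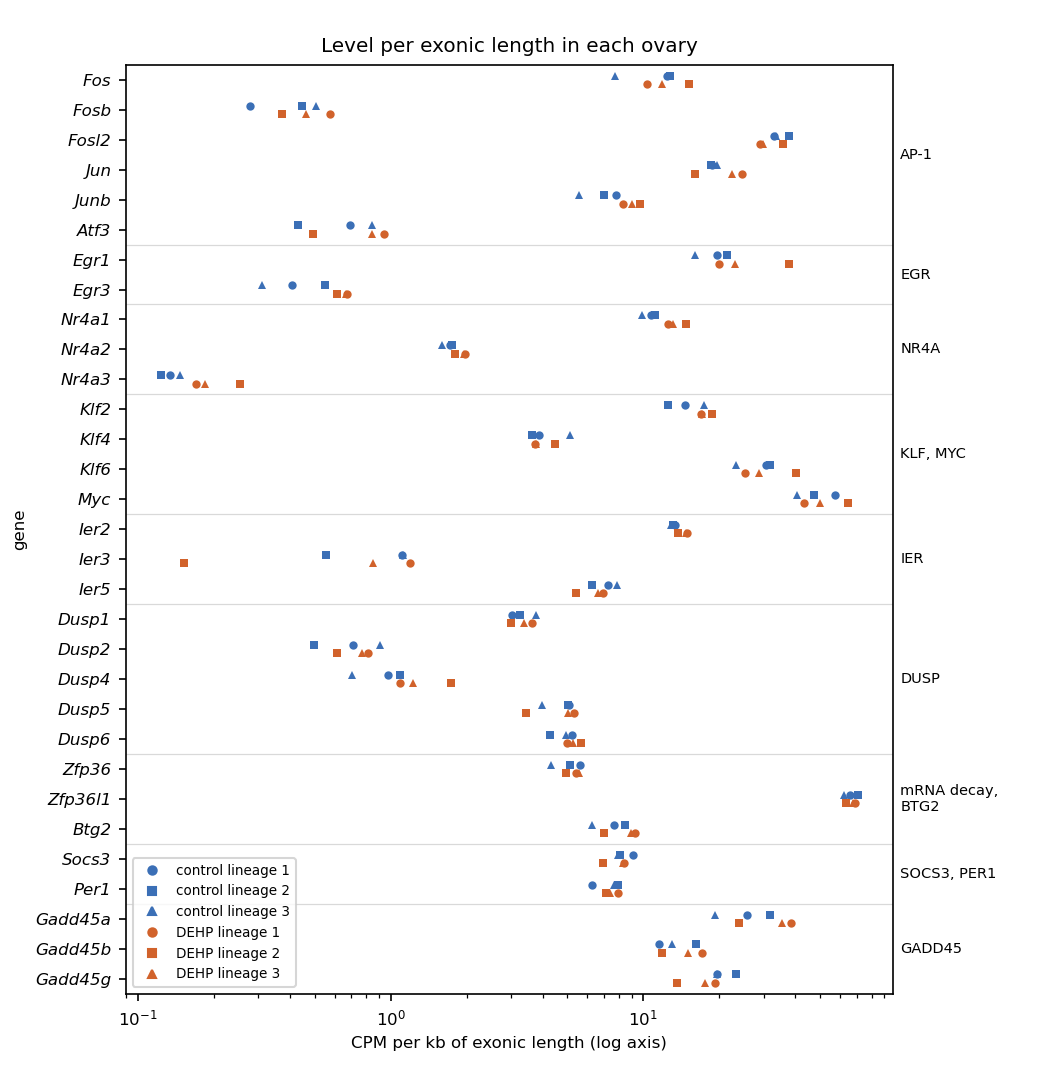
Level of each measured member in each ovary, in CPM per kb of exonic length on a log axis, grouped by role. Points are single ovaries, and levels run from 0.123 for Nr4a3 to 70.5 for Zfp36l1.

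No member passed in the comparison of the lineages. In whole ovaries, fewer cells of a type and less RNA per cell cannot be told apart. The limma test across all genes gave 0 calls among the 31 members at an adjusted p of 0.05, where 0.0425% of all genes were called (7 of 16454). The smallest adjusted p of a member was 0.477, that of Nr4a1. At an unadjusted p under 0.05 there were 2 members, Nr4a1 and Junb, both higher in the DEHP lineage (6.45%, against 8.78% of all genes in either direction and 4.76% higher), and 0 members were lower, against 4.02%. The authors' deposited table likewise has 0 members with an adjusted p under 0.05, where it calls 0.0182% of all genes, and the same 2 members with a p under 0.05, against 6.18% of all genes.

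By direction, 23 of 31 members had a higher mean in the DEHP lineage and 8 a lower one, where 46.9% of all genes had a higher mean. The median log2 fold change was 0.13 over the members and -0.01 over all genes. The 3 ovaries of one lineage lay wholly on one side of the other in 7 members (22.6%), against 22.9% of all genes, a share near the background. In 6 of the 7 the DEHP lineage was the higher (19.4% of members against 10.8% of all genes), namely Nr4a1, Nr4a2, Nr4a3, Junb, Egr3 and Ier2. In 1 it was the lower (3.23% against 12.2%), Gadd45g. The direction of the members as a group is known from earlier results on these data and is a description.

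**Figure D2:**
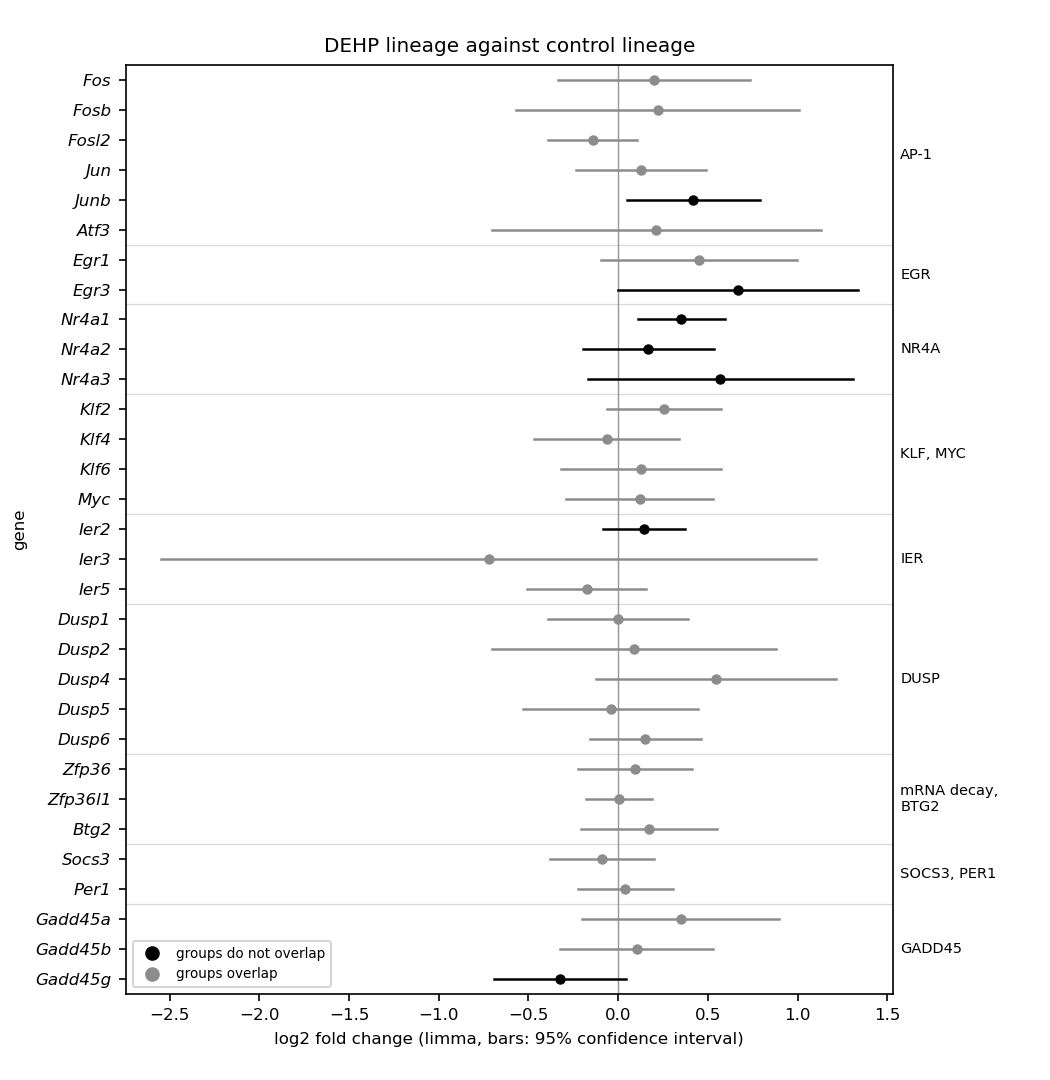
Log2 fold change of each measured member, DEHP lineage over control lineage, with 95% confidence intervals from limma (n = 3 ovaries each). Black marks the 7 members whose lineages did not overlap, and the intervals of Nr4a1 and Junb alone leave out 0.

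The NR4A receptors are nuclear receptors with no known natural hormone, and their protein and activity were not measured here. Nr4a1 stood at 28.6, 29.7 and 26.5 CPM in control replicates 1, 2 and 3 and at 33.7, 39.7 and 35.0 CPM in DEHP replicates 1, 2 and 3. Every DEHP-lineage ovary lay above every control ovary. The log2 fold change was 0.35 (SE 0.103, 95% interval 0.11 to 0.59), a 1.28-fold higher level, with a limma p of 0.0101 and an adjusted p of 0.477. Nr4a2 stood at 6.46, 6.57 and 5.97 CPM in the control ovaries and at 7.34, 6.72 and 7.28 CPM in the DEHP ovaries. Its lineages were separated only by the gap between control replicate 2 and DEHP replicate 2, which closed under quantile normalization, and its log2 fold change was 0.17 (interval -0.20 to 0.53). Nr4a3, near 1 CPM, stood at 0.766, 0.705 and 0.838 CPM in the control ovaries and at 0.972, 1.45 and 1.05 CPM in the DEHP ovaries. Its log2 fold change of 0.57 (interval -0.17 to 1.31, adjusted p 0.65 by limma) comes from levels near the bottom of the list. All 3 receptors thus had a higher mean in the DEHP lineage, under every alternative that kept them in the test. Because their lineages did not overlap, leaving out or averaging ovaries could not turn these signs. Alternatives that changed only the test left the log2 fold changes as they were.

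AP-1 is a dimer of a FOS and a JUN protein, and its makeup sets which genes it acts on. Junb, whose product often restrains JUN, stood at 14.1, 12.7 and 10.1 CPM in control replicates 1 to 3 and at 15.0, 17.5 and 16.4 CPM in the DEHP ovaries. The lineages did not overlap, and the log2 fold change was 0.42 (SE 0.159, interval 0.05 to 0.79; limma p 0.0323, adjusted p 0.535). The unadjusted p of Junb was over 0.05 without control replicate 2 or 3 or without DEHP replicate 2 or 3, while that of Nr4a1 was under it without any 1 ovary. Jun was even across the controls, at 59.7, 59.1 and 62.5 CPM, and spread in the DEHP lineage, at 78.3, 51.2 and 71.5 CPM. DEHP replicate 2 was thus below all controls and the other DEHP ovaries above them, and the mean difference was 0.13 (interval -0.24 to 0.49). It was 0.31 without DEHP replicate 2, 0.07 without DEHP replicate 3 and 0.0025 without DEHP replicate 1. Fos, which encodes the least stable AP-1 subunit, stood at 26.2, 27.0 and 16.4 CPM in the controls and at 21.8, 32.0 and 25.0 CPM in the DEHP ovaries. The lowest Fos value was control replicate 3 and the highest DEHP replicate 2, and without control replicate 3 the difference of 0.20 became -0.04. Fosl2, the most abundant of the measured FOS genes, stood at 215, 245 and 218 CPM against 189, 234 and 194 CPM, with overlapping lineages and a log2 fold change of -0.14 (interval -0.39 to 0.11). For Fosl2 it was -0.24 without DEHP replicate 2 and -0.08 without control replicate 2 or DEHP replicate 1. Fosb lay between 1.05 and 2.18 CPM over the 6 ovaries. Atf3, a stress-induced partner that mostly represses, stood at 1.49, 0.929 and 1.82 CPM in the controls and at 2.03, 1.06 and 1.83 CPM in the DEHP ovaries, with replicate 2 the lowest of each lineage.

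EGR proteins are zinc finger activators, and EGR1 is needed for luteinizing hormone production in the pituitary. Egr1 stood at 87.7, 95.7 and 72.1 CPM in control replicates 1 to 3 and at 89.1, 169 and 103 CPM in the DEHP ovaries. DEHP replicate 2 stood far above the others, while DEHP replicate 1 lay within the control range. The log2 fold change was 0.45 with an interval of -0.09 to 1.00 (limma p 0.0917), and it was 0.18 without DEHP replicate 2. Egr3, a low-level member, stood at 1.66, 2.25 and 1.27 CPM in the controls and at 2.77, 2.53 and 2.72 CPM in the DEHP ovaries. The lineages did not overlap, and the log2 fold change of 0.67 had an interval that just included 0 (limma p 0.051).

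**Figure D3:**
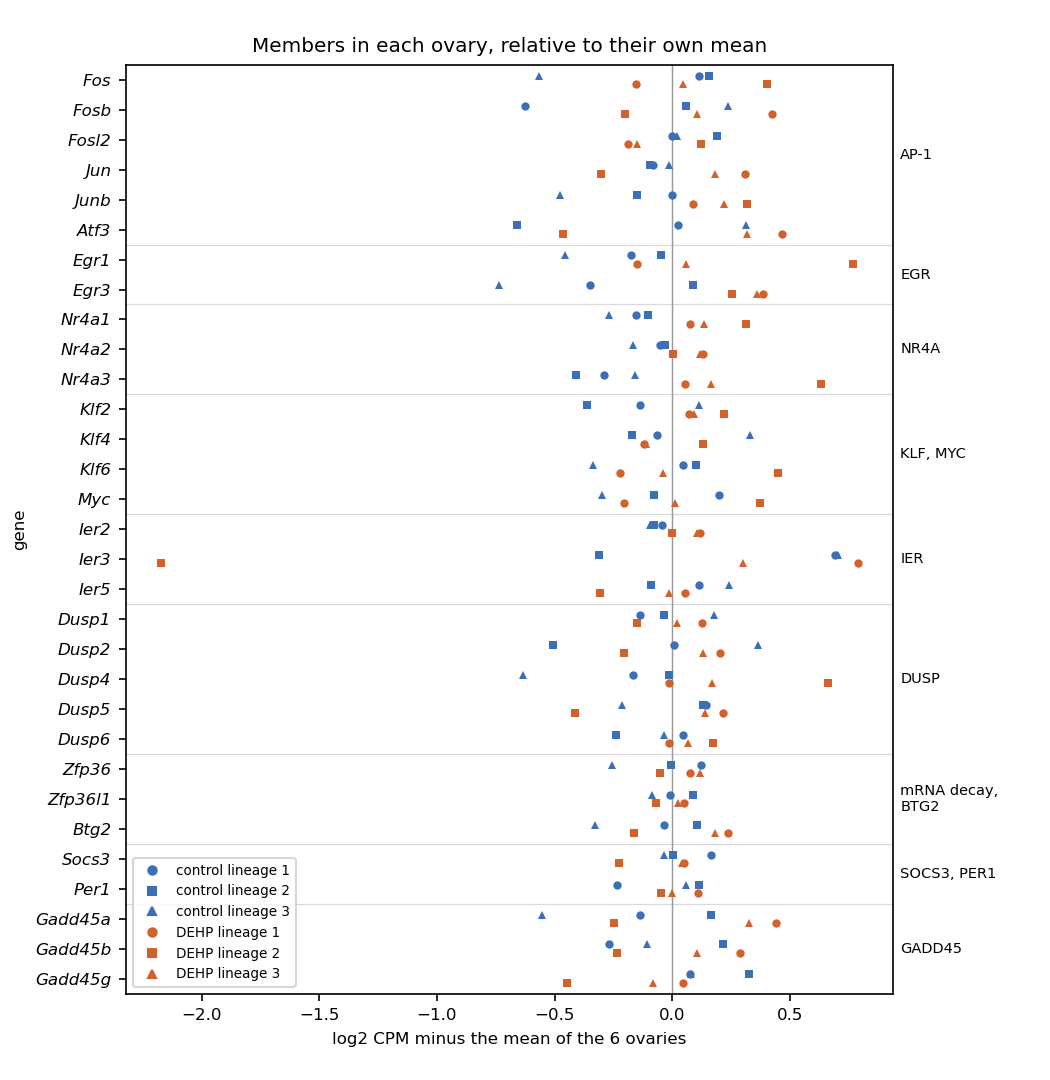
Log2 CPM of each member in each ovary minus its mean over the 6 ovaries, with control ovaries in blue above and DEHP ovaries in orange below each gene's line, and shapes for replicates. DEHP replicate 2 (orange square) stands highest for Egr1 and lowest for Ier3 and Jun.

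Among the other transcription factors, Myc and Klf6 shared the pattern of Egr1. Klf6, which encodes an injury-responsive zinc finger factor, stood at 129, 134 and 98.7 CPM in the controls and at 107, 170 and 121 CPM in the DEHP ovaries. Myc stood at 140, 115 and 99.0 CPM and at 106, 158 and 123 CPM in the same order. In both, control replicate 3 was the lowest ovary and DEHP replicate 2 the highest, the lineages overlapped, and the mean differences of 0.13 and 0.12 turned to -0.07 and -0.04 without DEHP replicate 2. Klf2, a factor that blood flow induces in endothelium, stood at 27.0, 23.1 and 32.1 CPM against 31.2, 34.5 and 31.6 CPM, with overlapping lineages and a log2 fold change of 0.26 (interval -0.06 to 0.57), or 0.14 without control replicate 2. Klf4 lay between 10.9 and 15.5 CPM, with its highest value in control replicate 3.

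The Ier genes encode small nuclear or membrane proteins of the early response. Ier2 was the steadiest member in the controls, at 20.3, 19.9 and 19.6 CPM, and stood at 22.7, 20.9 and 22.5 CPM in the DEHP ovaries. All 3 DEHP values were above the controls, by a log2 fold change of 0.15 (interval -0.08 to 0.38; limma p 0.18). Ier5 lay between 17.7 and 25.8 CPM with overlapping lineages and a log2 fold change of -0.18, or -0.07 without DEHP replicate 2, -0.10 without control replicate 3 and -0.27 without control replicate 2. Ier3, a survival factor, stood at 1.26, 0.628 and 1.27 CPM in the controls and at 1.35, 0.173 and 0.961 CPM in the DEHP ovaries, so that DEHP replicate 2 was far below every other ovary. Its log2 fold change was -0.72 with all ovaries (interval -2.55 to 1.11) and 0.18 without DEHP replicate 2.

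Of the 5 MAP kinase phosphatases, 3 had a higher mean in the DEHP lineage. The number was 4 after median centring and without control replicate 1 or 3, and 5 without DEHP replicate 2 (0.07 to 0.35). Dusp6, the cytoplasmic ERK phosphatase, stood at 14.6, 11.9 and 13.8 CPM against 13.97, 15.9 and 14.8 CPM, a log2 fold change of 0.15 (interval -0.16 to 0.46), or 0.07 without control replicate 2. Dusp4, a nuclear phosphatase, stood at 2.67, 2.98 and 1.94 CPM against 2.97, 4.76 and 3.37 CPM, a log2 fold change of 0.54 (interval -0.12 to 1.21), or 0.35 without DEHP replicate 2. Its lineages overlapped by the closeness of control replicate 2 and DEHP replicate 1, and did not overlap after median centring. Dusp1, which acts on p38 and JNK, had equal means of 7.94 ± 0.891 and 7.92 ± 0.764 CPM (SD, n = 3), with an interval of -0.39 to 0.39. Dusp2 and Dusp5 had log2 fold changes of 0.09 and -0.04, each with overlapping lineages.

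The transcript of the decay factor gene Zfp36l1 was even across ovaries, at 197, 211 and 187 CPM in the controls and 205, 189 and 202 CPM in the DEHP ovaries. Its interval of -0.18 to 0.19 was the narrowest of the 31. Zfp36 lay between 14.9 and 19.4 CPM, with a log2 fold change of 0.09. Btg2, an antiproliferative p53 target, stood at 21.0, 23.2 and 17.2 CPM against 25.4, 19.2 and 24.4 CPM, so that DEHP replicate 2 again lay within the controls (0.17, interval -0.21 to 0.55). The difference of Btg2 was 0.29 without DEHP replicate 2, 0.27 without control replicate 2, 0.09 without DEHP replicate 1 and 0.05 without control replicate 3. Socs3, the cytokine feedback inhibitor, stood at 23.2, 20.7 and 20.2 CPM against 21.4, 17.7 and 21.2 CPM, a log2 fold change of -0.09 (interval -0.38 to 0.20). The clock gene Per1, a direct CREB target, stood at 35.2, 44.7 and 43.1 CPM against 44.6, 40.0 and 41.3 CPM, with a difference of 0.04 (interval -0.23 to 0.31) and overlapping lineages.

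GADD45 proteins couple stress to cell cycle arrest and DNA demethylation, and their genes went different ways. Gadd45g, which stood at 21.0, 25.0 and 21.0 CPM in the controls and at 20.5, 14.6 and 18.8 CPM in the DEHP ovaries, was the single member whose DEHP values all lay below the controls. The gap between DEHP replicate 1 and control replicate 1 was narrow, and the log2 fold change was -0.32 (interval -0.69 to 0.05; limma p 0.0773). Without DEHP replicate 2 the log2 fold change of Gadd45g was -0.18. Gadd45a stood at 31.4, 38.8 and 23.5 CPM against 46.9, 29.1 and 43.3 CPM. DEHP replicates 1 and 3 lay above all controls and DEHP replicate 2 within them, with a log2 fold change of 0.35 (interval -0.20 to 0.90). For Gadd45a it was 0.56 without DEHP replicate 2, 0.16 without control replicate 3 and 0.22 without DEHP replicate 1. Gadd45b, with values between 15.9 and 23.3 CPM, was likewise lowest of the DEHP ovaries in replicate 2.

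Members in DEHP replicate 2 departed from the rest of their lineage in both directions. Its log2 CPM minus the mean of DEHP replicates 1 and 3 was above 0.3 for 6 members (19.4%, against 14.3% of all genes) and below -0.3 for 11 (35.5% against 11.5%). The higher ones were Egr1 (0.82), Dusp4 (0.59), Klf6 (0.58), Nr4a3 (0.52), Myc (0.47) and Fos (0.46). The lower ones included Ier3 (-2.72), Atf3 (-0.86), Gadd45a (-0.63), Dusp5 (-0.59), Jun (-0.55), Fosb (-0.46) and Gadd45b (-0.43). The median size of this difference was 0.37 in the members and 0.15 in all genes. Some of the members named had low levels in DEHP replicate 2. These were Ier3 (0.173 CPM), Atf3 (1.06 CPM) and Fosb (1.41 CPM) among the lower ones and Nr4a3 (1.45 CPM) among the higher ones. The deposited values hold no variation within lineages along 1 direction, which weighs -0.60 on DEHP replicate 1, -0.15 on replicate 2 and 0.75 on replicate 3. The closeness of replicates 1 and 3 is therefore no separate evidence about replicate 2.

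**Figure D4:**
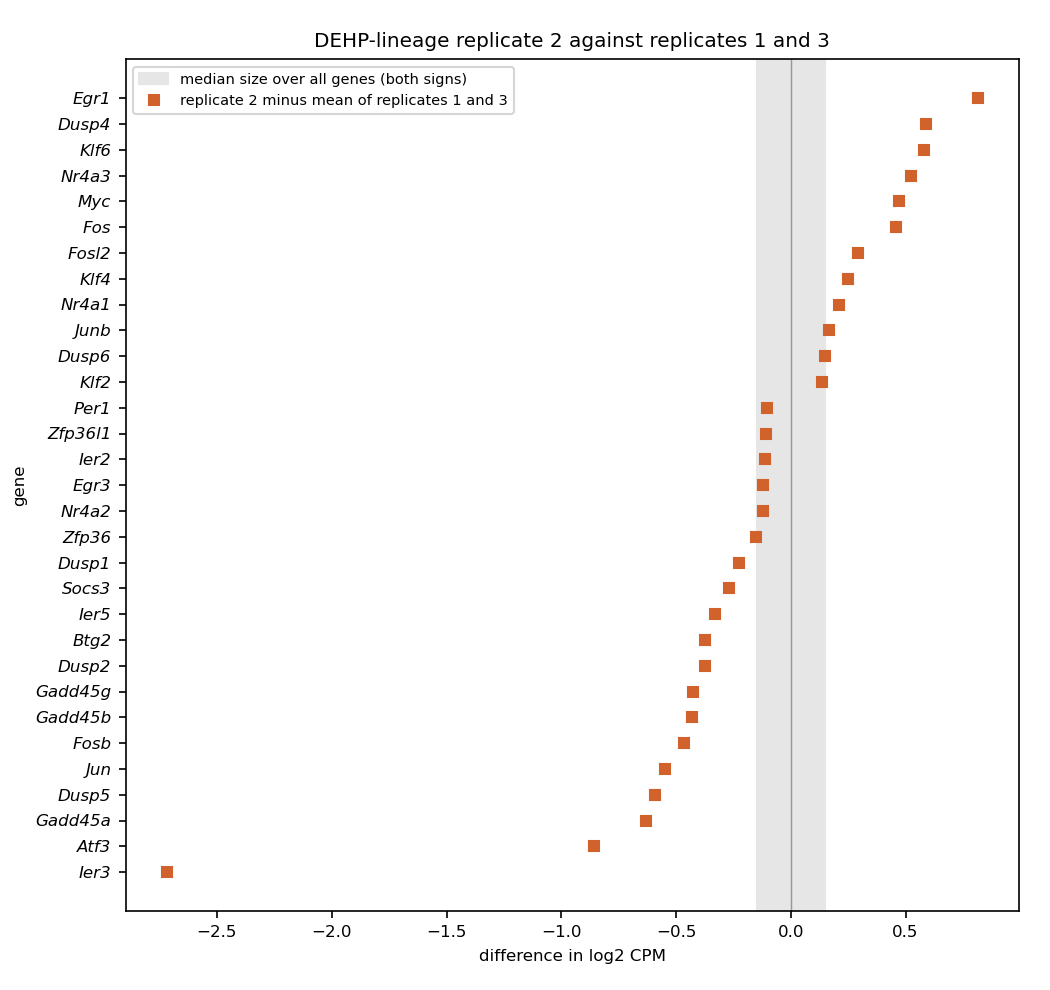
Log2 CPM in DEHP replicate 2 minus the mean of DEHP replicates 1 and 3, for each measured member in order of size. The grey band is the median size over all genes, 0.15 to either side, and 6 members lie above 0.3 and 11 below -0.3.

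The controls differed among themselves too. Control replicate 3 minus the mean of control replicates 1 and 2 was below -0.3 for 11 members (35.5%, against 15.1% of all genes), with Fos at -0.70, Egr3 at -0.61, Gadd45a at -0.57 and Dusp4 at -0.54, and above 0.3 for 6 (19.4% against 12% of all genes), with Atf3 at 0.63 and Dusp2 at 0.61. Among genes whose log2 CPM averaged 1 or more, the median range over the 3 control ovaries was 0.37 for 26 members and 0.23 for all 13063 such genes, and in the DEHP lineage it was 0.29 against 0.15. The median member thus spread more within a lineage than the median gene. The median of the 31 members relative to the mean of the 6 ovaries ran from -0.10 to -0.03 in the controls and was 0.08, -0.05 and 0.10 in DEHP replicates 1, 2 and 3.

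Genes that act with the members were described from lists chosen with earlier results known, and 0 genes of any of these lists passed over all genes. The kinases and transcription factors upstream, 27 of 27 measured, had 11 higher and 16 lower means and a median log2 fold change of -0.04, with 3 whose lineages did not overlap (11.1%, against 22.9% of all genes). Elk1, an ETS partner of the serum response factor, and Crtc2, a coactivator of CREB, were the 2 separated upwards, at 0.19 and 0.12, and Rps6ka1, which encodes an ERK-activated kinase, was the 1 separated downwards, at -0.11. The single gene of these 27 with an unadjusted p under 0.05, against 8.78% of all genes, was Mef2c (-0.32, limma p 0.0321). Srf itself was at -0.03 (limma p 0.678). Of 12 other AP-1 partners, Maf was separated upwards at 0.32 (limma p 0.0168) and Atf2 downwards at -0.13, together 16.7% of the list.

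Of 46 other immediate early genes, 42 were measured, with 22 higher and 20 lower means and a median of 0.01. The limma p before adjustment was under 0.05 for 4 higher genes (Per2, Cyr61, Plk2 and Sgk1) and 3 lower ones (Hbegf, Nfil3 and Rgs2). Over all genes, 4.76% were higher at that threshold and 4.02% lower. Per2, the clock partner of Per1, stood at 7.27, 10.2 and 11.0 CPM in the controls and at 19.6, 11.95 and 16.1 CPM in the DEHP ovaries (0.74, limma p 0.0161, adjusted p 0.491), without overlap, unlike Per1. Cyr61, which encodes a matrix protein induced by the serum response factor and YAP, and Plk2, a stress-induced kinase gene, were also separated upwards, at 0.37 and 0.35. Hbegf, an EGF-family growth factor gene, and Nfil3, a clock-linked repressor gene, were separated downwards, at -0.54 and -0.28. In all, 7 of the 42 were separated upwards and 3 downwards, together 23.8%, a share near the 22.9% of all genes. Of 26 other feedback inhibitors, 25 were measured, with 14 higher and 11 lower means and a median of 0.04. The lineages did not overlap in 7 (28.0%, against 22.9% of all genes). Separated upwards were 5, among them Spry1 (0.30) and Spry2 (0.20), inhibitors of receptor tyrosine kinase signalling. Separated downwards were 2, Tob2 (-0.20) and Spred1 (-0.15).

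Other cell types and stress genes varied beside these values, and their part in them was not tested. Of all genes, 22.9% did not overlap between the lineages, with 10.8% higher and 12.2% lower in the DEHP lineage. Of 6 granulosa markers, 3 had a higher and 3 a lower mean in the DEHP lineage. Inha made up most of their sum and was separated upwards (0.24), Amh was separated downwards (-0.25), and without Inha the sums overlapped, at 1028 to 1188 CPM in the controls and 960 to 1147 CPM in the DEHP lineage. Smooth muscle and pericyte markers (8 of 8) summed to 1965 to 2204 and 1575 to 1818 CPM, without overlap, and 4 of the 8 were separated downwards. Oocyte markers summed to 887 to 1141 and 816 to 896 CPM, and theca and interstitial markers (6 of 6) to 570 to 932 and 542 to 586 CPM. The mean was lower in the DEHP lineage for 7 of 8 oocyte markers, and 2 were separated downwards, Bmp15 (-0.35) and Gdf9 (-0.31). It was lower for all 6 theca and interstitial markers, and 1 was separated downwards, Ptch1 (-0.23). Adipocyte markers (5 of 5 measured) summed to between 41.6 and 148 CPM in the controls and between 33.2 and 259 CPM in the DEHP lineage, and the highest sum was that of DEHP replicate 2. Oviduct markers (4 of 4) were also highest there, at 16.1 CPM, against 4.86 to 8.88 CPM in the other ovaries. Erythroid markers (5 of 6) summed to 65.6 to 127 CPM and 115 to 290 CPM. Lymphatic endothelial markers (5 of 6) summed to 118 to 126 CPM in the controls and 158 to 163 CPM in the DEHP lineage, and 4 of the 5 genes did not overlap. Blood endothelial markers (7 of 8) summed to 332 to 363 and 292 to 341 CPM. Of these, 5 had a lower and 2 a higher mean in the DEHP lineage, and 1 was separated downwards, Kdr (-0.29). Stromal fibroblast (5 of 5) and surface epithelial (7 of 7) sums overlapped between the lineages. In each of these lists 1 gene was separated upwards, which was Lgals7 (0.85) in the surface epithelial list. Macrophage markers (8 of 8) summed to 39.0 CPM in control replicate 2 and 64.7 to 104 CPM in the others. Heat shock genes (10 of 12, without Hspa1a and Hspa1b) summed to 4072 CPM in control replicate 1 and 5262 to 6214 CPM in the others, and Hspb1 was the 1 without overlap, at 0.77 (limma p 0.00299). Of neutrophil and lymphocyte or mast cell lists, 1 of 5 and 1 of 8 genes were measured, Csf3r and Kit, the last of which oocytes also express.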

How the data were processed

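RNA was measured in 6 ovaries, 3 of each lineage, grouped by the labels. Per the submitters' processing notes, tools included Trimmomatic 0.36, STAR 2.5.3a, featureCounts, Subread 1.5.2 and edgeR 3.20.5, with build GRCm38.p6. Their settings were not stated. The authors deposited log2 CPM per ovary from which surrogate variables had been removed, per the file headers and the table's name, their number not stated, with their own log2 fold change, signed fold change (a score that was not used) and p-value. Depth is unknown, and summed CPM ran from 979868 to 1026735. Deviations from the group means filled 3 of 4 directions, so limma 3.58.1 in R 4.3.3 (mean-variance trend, two-sided, Benjamini-Hochberg over 16454 genes, threshold 0.05) was given 3 residual degrees of freedom. It was tried on simulated data with independent noise and planted differences larger than those of any member. That trial does not give its error rate for these values. In fits that left out an ovary, averaged 2 or used a block, the part of the missing direction that remained was subtracted. Such removal takes spread away, so SDs may be too small. The labels do not tie ovaries to litters or founding dams, so p-values measure only the spread between these ovaries. The correlation between DEHP replicates 1 and 3 over all genes was 0.998 (0.978 to 0.989 in the other pairs), and both were counted. CPM is 2 to the power of the deposited value. Exonic lengths, exons, 3' UTRs (longest per gene) and shared words of 31 bases are from GENCODE M21 transcripts matched by Entrez identifier, and positions and promoters from RefSeq. The members and lists were chosen with earlier results of these data known. Values per ovary are given for members without overlap between lineages or with p under 0.05, the highest member of each family per length and Fos, Egr1, Nr4a1, Myc, Socs3, Atf3, Btg2 and Per1. From other lists, up to 5 genes without overlap were named. Mef2c, Srf, Sgk1, Rgs2, Csf3r, Kit and the values per ovary of Dusp4, Klf2 and Ier3 were added after their values were seen. The choice of promoters and the search for TGACG and TATTTAT were also made after the data were seen.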

Additional observations from a re-analysis of the deposited data

How the results depend on the processing

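No member was called under any of the 15 alternatives, with smallest adjusted p values between 0.111 (Egr1 with the replicate block) and 0.759 by limma or in the authors' deposited table. The count over all genes, 7, was 20 with 4 residual degrees of freedom, 155 with the replicate block, 3 with quantile normalization, 1 without the mean-variance trend and 3 in the authors' deposited table, and it ranged from 3 to 35 when an ovary was left out. The labels do not say whether same-numbered ovaries belong together. Deviations of same-numbered ovaries had correlations of -0.327, -0.00343 and -0.198. These correlations cannot settle it, because surrogate variables had already been removed from the values. The members' median log2 fold change was between 0.08 and 0.18 throughout. The number of members without overlap was between 6 and 9, where the share of all genes without overlap ran from 22.5% to 26.1%. When an ovary was left out it was between 7 and 12, and the share over all genes also rose, to between 23.9% and 38.0%. The 12 members were those without DEHP replicate 2, the setting with 38.0% of all genes. Leaving out 1 ovary turned the sign of 15 of 31 members: Atf3 (-0.062 to 0.50), Fos (-0.036 to 0.33), Fosb (-0.037 to 0.39), Klf4 (-0.17 to 0.085), Klf6 (-0.067 to 0.27), Myc (-0.038 to 0.25), Ier3 (-1.30 to 0.18), Dusp1 (-0.071 to 0.085), Dusp2 (-0.14 to 0.29), Dusp5 (-0.16 to 0.16), Gadd45b (-0.013 to 0.25), Per1 (-0.065 to 0.11), Socs3 (-0.14 to 0.000219), Zfp36 (-0.012 to 0.18) and Zfp36l1 (-0.038 to 0.049). Averaging DEHP replicates 1 and 3 put Zfp36l1 at -0.014. The cause of these changes was not tested. Nr4a1 stayed between 0.28 and 0.40 and Junb between 0.29 and 0.52. Dusp4 separated after median centring. At 4 residual degrees of freedom, 4 members had an unadjusted p under 0.05, Nr4a1, Junb, Egr3 and Nr4a3 (14.9% of all genes did). Depth is unknown, so no limit by depth could be set for low members such as Nr4a3, Ier3 and Egr3.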
